A study of Mus musculus with 2 samples.

Results

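The genes of major histocompatibility complex (MHC) class II presentation were followed on 2 Agilent arrays of 1 colour, both of mouse spleen. The 10 genes are H2-Aa, H2-Ab1, H2-Eb1, H2-Eb2, Cd74, H2-DMa, H2-DMb1, H2-Oa, H2-Ob and Ciita, set by their gene symbols with earlier results of these data known. All 10 were matched to a probe through its accession, and all were well above background on both arrays, among 16774 named genes above background on at least 1 array. The SiO2 array held RNA of spleens remodelled with silica (SiO2), and the PBS array held RNA of control spleens given phosphate-buffered saline (PBS). Each was a pool of 5 spleens of female mice, collected on day 19 counted from the first injection. The strain and the age of the mice are not given in the sources used here, and the wider series also covers fibroblasts, hepatocyte-like cells and liver, which were not analysed here.

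Class II molecules present peptides from endosomes to CD4+ T cells, and in spleen they are carried mainly by B cells, dendritic cells and some macrophages. An alpha and a beta chain, from the A pair or the E pair in mice, bind the invariant chain Cd74 in the endoplasmic reticulum, which blocks the peptide groove and guides the complex to endosomes. There the H2-DM heterodimer removes the last fragment of Cd74 and helps to select peptides, and the H2-DO heterodimer holds H2-DM in check, above all in B cells. Transcription of these genes depends on Ciita, a coactivator that does not bind DNA itself but docks on the RFX, CREB and NF-Y proteins at a shared promoter module.

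That module has an X box, bound by RFX and CREB proteins, upstream of a Y box, bound by NF-Y. RefSeq promoters of build GRCm38.p6, running from 250 bases before to 50 bases after a gene start, were found for 7 of the 10 genes (H2-Aa, H2-Eb1, H2-Eb2, H2-DMa, H2-DMb1, H2-Oa and H2-Ob). The letters searched were GNAAC, a part of the X box, followed by ATTGG, the Y box, with their first bases 25 to 40 bases apart on the same strand, a distance set after the promoters had been read. Both strands were searched and the letters of both motifs cannot overlap at this distance. The pair was found in 6 of the 7 genes, always on the gene's own strand, and in 2.67% of all 32851 promoters on either strand. The 6 stretches are shown because they set side by side the promoter element through which Ciita is known to act. They run 5′ to 3′, with GNAAC and ATTGG in capitals.
H2-Aa (chr17:34287865-34287907, minus strand): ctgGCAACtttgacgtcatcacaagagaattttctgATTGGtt
H2-Eb1 (chr17:34305773-34305814, plus strand): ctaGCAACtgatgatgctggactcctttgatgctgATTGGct
H2-Eb2 (chr17:34325540-34325581, plus strand): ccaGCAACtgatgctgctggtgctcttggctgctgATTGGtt
H2-DMb1 (chr17:34153094-34153136, plus strand): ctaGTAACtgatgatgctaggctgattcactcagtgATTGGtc
H2-Oa (chr17:34092300-34092342, plus strand): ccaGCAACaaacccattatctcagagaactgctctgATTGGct
H2-Ob (chr17:34238815-34238854, plus strand): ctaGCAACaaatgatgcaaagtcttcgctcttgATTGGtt

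The first bases of the motifs were 33 bases apart in H2-Aa, H2-DMb1 and H2-Oa, 32 apart in H2-Eb1 and H2-Eb2, and 30 apart in H2-Ob. The Y box began 43 bases before the gene start in H2-Oa, 48 in H2-Aa, 57 in H2-Ob, 59 in H2-Eb1, 61 in H2-DMb1 and 100 in H2-Eb2. Neither of the listed promoters of H2-DMa held the pair, and a match is a run of letters, not a measured binding site. Whole promoters are given for H2-DMb1 and H2-Aa, because these are the genes with the lowest and the highest difference between the pools among the 6, with the same motifs in capitals.
H2-DMb1 promoter (chr17:34152941-34153240, plus strand): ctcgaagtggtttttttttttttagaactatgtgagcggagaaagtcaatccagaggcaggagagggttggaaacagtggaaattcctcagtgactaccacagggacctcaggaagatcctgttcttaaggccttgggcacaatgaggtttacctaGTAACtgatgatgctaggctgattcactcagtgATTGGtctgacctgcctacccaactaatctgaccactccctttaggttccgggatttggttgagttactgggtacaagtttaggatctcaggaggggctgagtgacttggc
H2-Aa promoter (chr17:34287774-34288073, minus strand): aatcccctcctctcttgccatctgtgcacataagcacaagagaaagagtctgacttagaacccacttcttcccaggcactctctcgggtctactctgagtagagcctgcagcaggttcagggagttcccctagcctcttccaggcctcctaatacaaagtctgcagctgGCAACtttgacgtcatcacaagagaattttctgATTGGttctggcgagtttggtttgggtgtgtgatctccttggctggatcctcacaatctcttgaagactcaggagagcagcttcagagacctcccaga

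On the SiO2 array 74.9% of spots were well above background, on the PBS array 75.5%, and none was saturated. The 75th percentile of processed signal was 469 on the SiO2 array and 670 on the PBS array. Each signal was therefore divided by that percentile, and differences are log2 of the scaled SiO2 signal minus log2 of the scaled PBS signal. With 1 array a group there is no test and no error between animals. The error given with a signal is the spot error that the scanner software computes. It came to 0.20 on the log2 scale for the difference of each of the 10 genes. Since it was alike for all 10, multiples of it follow the size of the difference and add no separate evidence. For 300 probes printed as 8 or more usable spots, the SD of the difference among spots was 0.061 at its median and 0.227 at its 95th percentile. Spleen identity was checked on the B cell gene Ms4a1 and the T cell gene Cd3e, and on the spleen stroma factors Tlx1 and Nkx2-3, which were all well above background on both arrays.

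Most class II presentation genes were lower in the SiO2 pool than in the PBS pool, by less than 2-fold. The measured A and E chain genes, H2-Aa, H2-Ab1, H2-Eb1 and H2-Eb2, differed little. No probe was matched to the alpha chain of E. The invariant chain, the H2-DM and H2-DO chains among the 10 and Ciita were between 1.41-fold and 1.89-fold lower by their brightest probes. Of the 10 genes, 9 had a difference below 0, where 47.7% of all named genes did. The exception, H2-Ab1, was at -0.09 after quantile normalization. At least 1.5-fold lower were 5 of the 10, Ciita, H2-DMb1, H2-Ob, Cd74 and H2-DMa, and 12.3% of all named genes passed that limit. None of the 10 was 2-fold lower, against 3.69% of all named genes. None was 1.5-fold higher, against 16.0%, or 2-fold higher, against 6.62%. The median of the 10 differences was -0.54 and that of all named genes 0.03. These shares depend on the scaling: with lymphocyte markers (the B cell and T cell lists) brought to a median of 0, 3.36% of all named genes were at least 1.5-fold lower and 41.9% higher, and 0 of the 10 were then 1.5-fold lower.

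**Figure D1:**
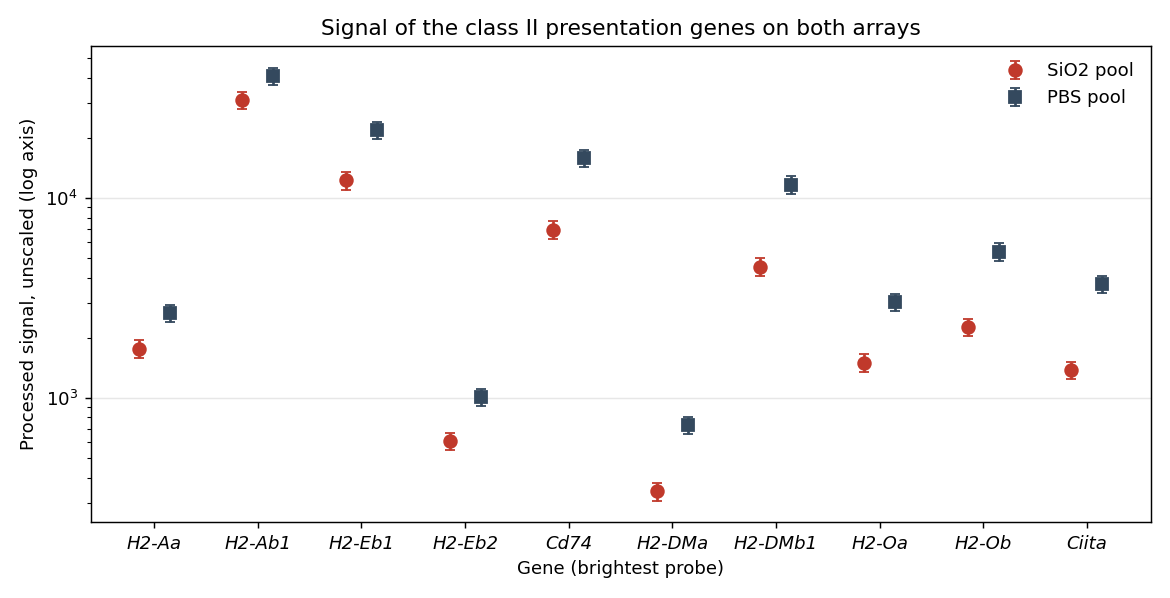
Processed signal, before scaling, of the brightest probe of each gene (log axis) on the SiO2 array (red circles) and the PBS array (dark squares), 1 pool each; bars are the scanner software's spot error. Every gene had the dimmer spot on the SiO2 array, whose 75th percentile was 469 against 670 on the PBS array, and heights of different genes cannot be compared because probes differ in brightness.

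Among the classical chains, H2-Ab1, the beta chain of the A molecule, was measured by 2 probes. Its brightest probe had a signal of 30978 ± 3098 in the SiO2 pool, against 40913 ± 4091 in the PBS pool, and the scaled difference was 0.11. The second probe read 26917 ± 2692 in the SiO2 pool, against 35428 ± 3543 in the PBS pool, a scaled difference of 0.12, so that both probes placed H2-Ab1 within the spot error of no difference. H2-Aa, its alpha chain partner, had a signal of 1768 ± 177 in the SiO2 pool, against 2653 ± 265 in the PBS pool. The scaled difference of H2-Aa was -0.07, also smaller than its spot error. H2-Eb1, the beta chain of the E molecule, had a signal of 12257 ± 1226 in the SiO2 pool, against 21852 ± 2185 in the PBS pool, and was 1.25-fold lower after scaling. H2-Eb2, a second beta chain gene next to it, had a signal of 610 ± 61.1 in the SiO2 pool, against 1013 ± 101 in the PBS pool, and was 1.16-fold lower. The differences of H2-Eb1 (-0.32) and H2-Eb2 (-0.22) were larger than 1 spot error and smaller than 2.

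Cd74, the invariant chain, had a signal of 6967 ± 697 in the SiO2 pool, against 15862 ± 1586 in the PBS pool. It was 1.60-fold lower after scaling, a difference of -0.67 and 3.31 times its spot error. Only 9.39% of all named genes had a lower difference. The gene lies outside the MHC region, on chromosome 18, while the chains are on chromosome 17.

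The 4 chains of the peptide editor and its inhibitor that are among the 10 were lower in the SiO2 pool by their brightest probes. H2-DMb1, the beta chain of H2-DM, had a signal of 4551 ± 455 in the SiO2 pool, against 11695 ± 1170 in the PBS pool, and was 1.80-fold lower after scaling. H2-DMa, its alpha chain partner, had a signal of 341 ± 34.1 in the SiO2 pool, against 732 ± 73.2 in the PBS pool, a scaled difference of -0.59, just past the 1.5-fold limit. It fell short of that limit with normexp background correction (-0.55) and with cyclic loess normalization (-0.57). The difference of H2-DMb1 minus that of H2-DMa was -0.26, smaller than the spot error of 0.29 for a comparison of 2 genes. H2-DMb2, a near copy of H2-DMb1 that is not among the 10, had a signal of 323 ± 32.3 in the SiO2 pool, against 421 ± 42.1 in the PBS pool, a scaled difference of 0.13. Sequences this alike can bind each other's probes, so the split of signal between H2-DMb1 and H2-DMb2 is uncertain.

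H2-Ob, the beta chain of H2-DO, had 2 probes that disagreed. The brighter read 2259 ± 226 in the SiO2 pool, against 5406 ± 541 in the PBS pool, a scaled difference of -0.75 or 1.68-fold lower. The dimmer read 906 ± 90.6 in the SiO2 pool, against 1418 ± 142 in the PBS pool, a scaled difference of -0.13, within its spot error. The mean of both probes was -0.44, so the place of H2-Ob among the lower genes rests on its brighter probe. H2-Oa, the alpha chain of H2-DO, had a signal of 1501 ± 150 in the SiO2 pool, against 3017 ± 302 in the PBS pool, and was 1.41-fold lower, which is 2.42 times its spot error but short of the 1.5-fold limit.

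Ciita had the lowest difference of the 10 genes. Its signal was 1379 ± 138 in the SiO2 pool, against 3719 ± 372 in the PBS pool, 1.89-fold lower after scaling, and only 4.53% of all named genes had a lower difference. The difference was -0.92, with the same spot error of 0.20 as the other 9 genes. Ciita is transcribed from several promoters that differ between dendritic cells, B cells and cells exposed to interferon gamma, and the 1 probe for it does not separate them.

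**Figure D2:**
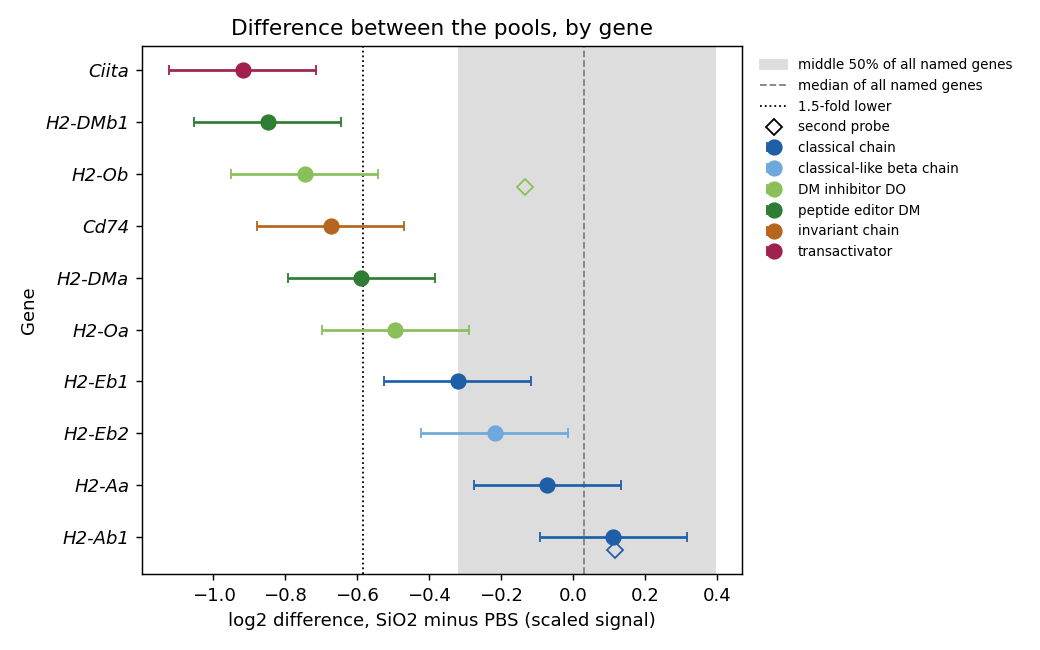
Scaled log2 difference (SiO2 minus PBS) of each gene by its brightest probe (filled circles, coloured by role), with the scanner software's spot error as bars, second probes as open diamonds, the middle 50% of all named genes in grey and the 1.5-fold limit dotted. Ciita lies lowest at -0.92 and H2-Ab1 highest at 0.11, and the second H2-Ob probe lies at -0.13, away from its brighter probe at -0.75.

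The genes were also put in the order of their difference. From low to high these were Ciita (-0.92), H2-DMb1 (-0.85), H2-Ob (-0.75), Cd74 (-0.67), H2-DMa (-0.59), H2-Oa (-0.49), H2-Eb1 (-0.32), H2-Eb2 (-0.22), H2-Aa (-0.07) and H2-Ab1 (0.11). The widest step between neighbours was 0.18, between H2-Aa and H2-Ab1, and no step exceeded the spot error of 0.29 for a difference between 2 genes. Repeated spots of 300 other probes spread less, with a median SD of 0.061. The spot error therefore cannot show whether the order has a break. The 4 highest places were those of H2-Ab1, H2-Aa, H2-Eb2 and H2-Eb1 (median -0.15). The 6 lowest were those of Cd74, Ciita and the H2-DM and H2-DO chains among the 10 (median -0.71). Signal strength was set beside this order, because arrays can differ by brightness. The 500 named genes nearest in signal to each of the 10 had medians between -0.10 and 0.11, and 9 of the 10 genes lay below the median of their own 500, while H2-Ab1 lay at 0.11 with its 500 also at 0.11.

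The ratio of 2 genes within an array does not depend on how the arrays are scaled by a constant. The ratio of Ciita to H2-Ab1 was 2.04-fold lower in the SiO2 pool than in the PBS pool, a log2 difference of -1.03 with a spot error of 0.29. The ratio of Cd74 to H2-Ab1 was 1.72-fold lower and that of Cd74 to H2-Aa 1.52-fold lower. Against H2-Eb1 the ratios differed less, at 1.51-fold lower for Ciita and 1.28-fold lower for Cd74 (-0.35 with a spot error of 0.29). The ratio of H2-DMb1 to H2-Ab1, which had the highest difference of the 10, was 1.95-fold lower. Across the 8 other settings that give a value, the difference of Ciita minus H2-Ab1 ran from -1.03 to -0.88, and that of Cd74 minus H2-Ab1 from -0.79 to -0.67. Those of the 8 that shift every gene alike cannot move these values and add no check on them. The mRNAs of Cd74, H2-DMb1 and Ciita were thus lower relative to H2-Ab1 in the SiO2 pool. As H2-Ab1 had the highest difference of the 10, every other member was lower relative to it. H2-DMb2, outside the 10, was not (0.13 against 0.11). Which of these genes changed in absolute amount cannot be read from such ratios.

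**Figure D3:**
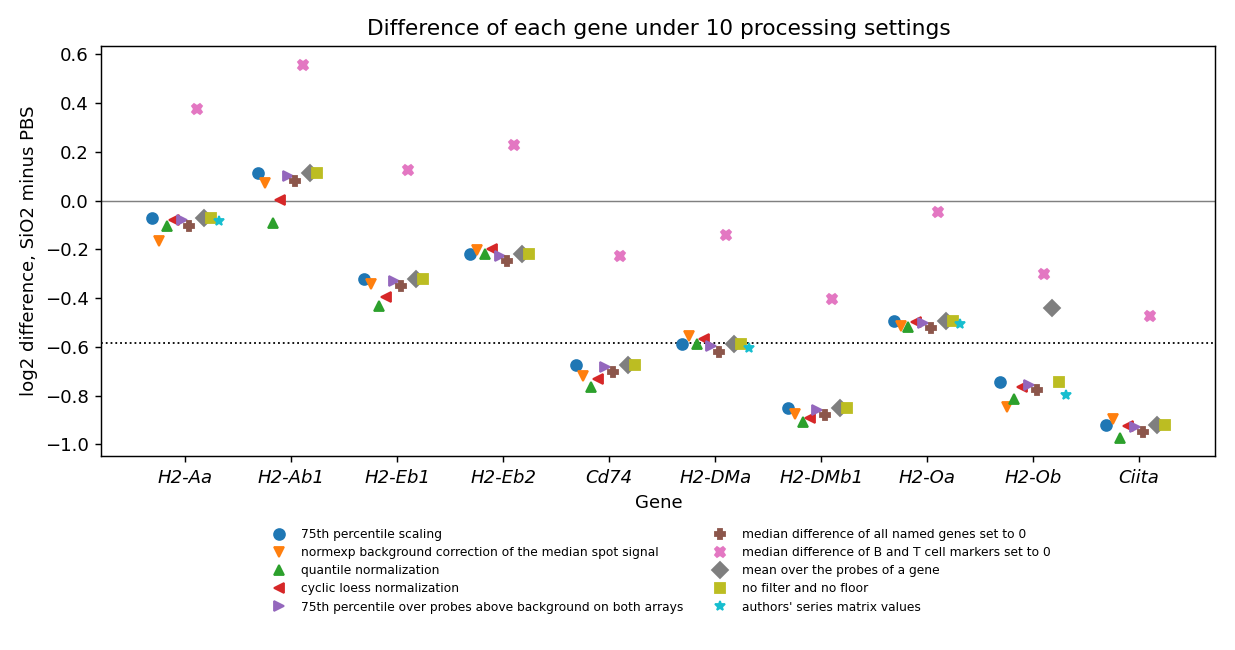
Log2 difference (SiO2 minus PBS) of each gene under 10 processing settings, each with its own symbol; the dotted line is the 1.5-fold limit, and settings that lack a gene have no symbol. The settings lie close together for each gene except the shift by lymphocyte markers, which raises all genes alike by 0.45, and the mean over both H2-Ob probes.

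Genes of the interferon gamma route, which induces Ciita in many cells, had a median of -0.31. The 1.5-fold limit was passed on the lower side by 4 of the 10 measured, by 3 of them also the 2-fold limit. None passed it on the higher side. Of all named genes, 12.3% were 1.5-fold lower, 3.69% 2-fold lower and 16.0% 1.5-fold higher. With normexp the counts on the lower side were 3 and 2, and 6.9% of all named genes were then 1.5-fold lower. The cytokine signal inhibitor Socs1 had a signal of 255 in the SiO2 pool, against 1659 in the PBS pool, and was 4.57-fold lower after scaling. Irf1, which acts on the interferon-induced promoter of Ciita, was 3.15-fold lower by its brighter probe, and its other probe gave -1.16. The cytokine itself, Ifng, was at -0.95, and at -0.56 with normexp, short of the 1.5-fold limit. The receptor chain Ifngr1 (-0.26), the phosphatase Ptpn2 (-0.37) and the factor Irf2 (-0.20) lay near the median of the list, although the 3 probes of Ptpn2 ran from -0.60 to 0.11.

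Factors that Ciita docks on or works with differed in both directions. Of 15 promoter factors and partners, 1 was at least 1.5-fold lower and 4 at least 1.5-fold higher, 1 of them 2-fold, with a median of 0.15. Among all named genes 12.3% were 1.5-fold lower, 16.0% 1.5-fold higher and 6.62% 2-fold higher. The subunits of RFX were at -0.49 for Rfx5, 0.15 for Rfxap and 0.25 for Rfxank, with signals of 25.3 for Rfx5 in the SiO2 pool and 50.5 in the PBS pool. The direction of Rfx5 is not settled, since normexp gave 0.15 and its second probe -0.95. The NF-Y subunits that bind the Y box were at 0.68 for Nfya, 0.91 for Nfyb and 0.43 for Nfyc. Creb1 was at 0.12 by its brightest probe, at -0.33 by its other and at -0.10 as their mean, and the acetyltransferase Kat2b was 2.31-fold higher. The 1 factor past 1.5-fold lower was Irf8 at -0.87, a transcription factor of B cells and dendritic cells.

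Endosomal genes of class II antigen processing had 2 of 12 members at least 1.5-fold lower, both also 2-fold, and none 1.5-fold higher, with a median of -0.29. The shares of all named genes were 12.3% 1.5-fold lower, 3.69% 2-fold lower and 16.0% 1.5-fold higher. The 2 lower members were the protease cathepsin C, Ctsc, and the protease inhibitor cystatin C, Cst3, each 2.13-fold lower. Ctss, the protease that trims Cd74 in B cells and dendritic cells, was at -0.41, and Sppl2a, which clears the last membrane stub of Cd74 in B cells, at -0.27. The reductase Ifi30 (-0.31) and the protease Ctsh (-0.38) lay near the median, and the lysosomal protease Ctsd was at 0.52.

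Among genes of class II turnover and co-stimulation, the median was -0.47, and 4 of 9 lay past 1.5-fold on the lower side and 1 on the higher side. For all named genes the shares were 12.3% lower and 16.0% higher. The co-stimulatory genes Icosl, Cd86 and Cd40 were at -0.99, -0.98 and -0.90, and Cd80 at -0.31. Marchf1, the ubiquitin ligase that removes class II from the surface of B cells and dendritic cells, was at -0.64 by its brightest probe and as high as 1.28 by another. Its relative Marchf8 was 2.51-fold higher, with a signal of 11025 in the SiO2 pool, against 6266 in the PBS pool. Cd83 (-0.36), which opposes Marchf1, and the tetraspanin Cd37 (-0.47) lay near the median.

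In MHC class I presentation, the chains differed little and several helpers were lower. Of 16 measured, 8 were at least 1.5-fold lower, 5 of them 2-fold, and none was 1.5-fold higher, with a median of -0.58. Beside this, 12.3% of all named genes were 1.5-fold lower, 3.69% 2-fold lower and 16.0% 1.5-fold higher. The chains H2-K1 (-0.02), H2-D1 (-0.26) and B2m (-0.01) differed little by their brightest probes, although a further H2-K1 probe gave -0.69. Nlrc5, the transactivator of class I genes and a relative of Ciita, was 2.96-fold lower by its brighter probe and at -0.76 by its other. The immunoproteasome subunits Psmb10 and Psmb9 were 2.98-fold and 2.17-fold lower, and the peptide transporter genes Tap1 and Tap2 lay just past the 2-fold limit. Tap1 fell short of it by normexp (-0.91), by cyclic loess (-0.98) and narrowly by quantile normalization. With normexp 7 of the 16 were 1.5-fold lower, 4 of them 2-fold, and 6.9% of all named genes were 1.5-fold lower. Near the median were Tapbp (-0.44), Psme1 (-0.72) and Erap1 (-0.76, or -0.58 with normexp).

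**Figure D4:**
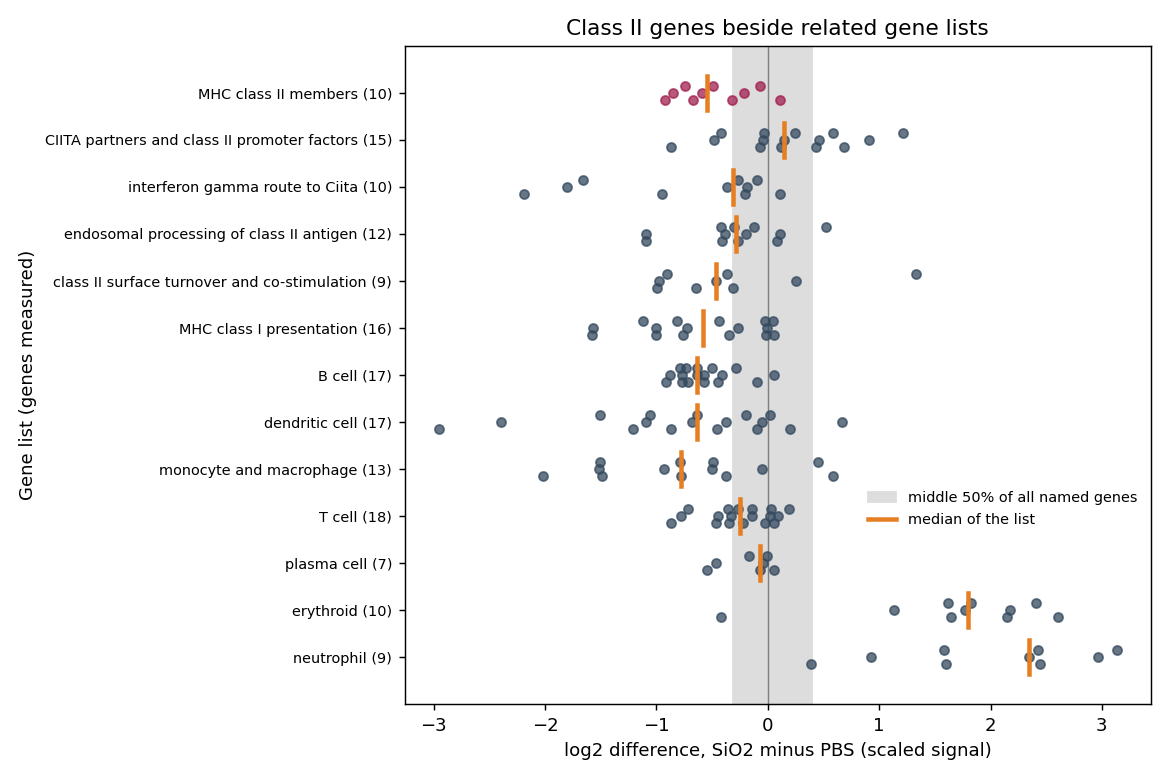
Scaled log2 difference (SiO2 minus PBS) of each measured gene of the class II set (red) and of 12 other lists (dark), with list medians in orange and the middle 50% of all named genes in grey; the number of genes measured stands after each name. The class II set (median -0.54) sits near the class I (-0.58), turnover and co-stimulation (-0.47), B cell (-0.63) and dendritic cell (-0.64) lists. The erythroid (1.80) and neutrophil (2.35) lists lie on the other side.

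Markers of the cells that carry class II were mostly lower too. Over all named genes, 47.7% were below 0, 12.3% at least 1.5-fold lower, 3.69% 2-fold lower and 16.0% at least 1.5-fold higher. B cell markers had 16 of 17 members below 0 and 9 at least 1.5-fold lower, with a median of -0.63, and their scaled signals summed to 108 in the SiO2 pool and 160 in the PBS pool. The B cell receptor partner Cd79b was at -0.29, Ms4a1, which encodes CD20, at -0.45 and the complement receptor Cr2 at -0.88. Of the 10 class II genes, Ciita, H2-DMb1, H2-Ob and Cd74 lay below the B cell median and the other 6 above it. Among dendritic cell markers, 9 of 17 were at least 1.5-fold lower, 6 of them 2-fold. On the higher side 1 passed the 1.5-fold limit, Zbtb46 at 0.66, which fell short of it with normexp (0.54). The median of the list was -0.64, with sums of 66.1 in the SiO2 pool and 79.6 in the PBS pool. One gene, Siglech, made up 46.2 of the sum in the SiO2 pool and 45.6 in the PBS pool, and the other 16 summed to 19.9 in the SiO2 pool and 34.0 in the PBS pool. Xcr1 (-2.95) and Clec9a (-2.39) of cross-presenting dendritic cells were lowest. With normexp Xcr1 was at -2.03 and Clec9a at -2.12, which turns their order. Itgax, which encodes CD11c, was at -0.64. Of the genes of plasmacytoid dendritic cells, Siglech was at 0.02 by its brightest probe but at -0.88 by its other, and Bst2, which interferon also induces in other cells, was 2.84-fold lower. Further genes of the list differed less: Ccr9 was at -0.05, Clec10a at -0.19 and Tcf4 at -0.09, or -0.47 by its other probe. Cd209a was at 0.20 by its brightest probe and at 1.62 by its other. Among monocyte and macrophage markers, 7 of 13 were at least 1.5-fold lower. On the higher side 1 passed the 1.5-fold limit, Itgam at 0.59, which fell short of it with normexp (0.51), and Lyz2 was at 0.45. The median of this list was -0.78, with sums of 48.0 in the SiO2 pool and 84.7 in the PBS pool.

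Erythroid markers, with 9 of 10 at least 2-fold higher, summed to 231 in the SiO2 pool and 110 in the PBS pool. Neutrophil markers, with 7 of 9 at least 2-fold higher, summed to 194 in the SiO2 pool and 84.7 in the PBS pool. The share of all named genes at least 2-fold higher was 6.62%. All measured markers of B cells, dendritic cells and macrophages were well above background on both arrays. In these bulk pools, fewer cells of a type and less RNA per cell cannot be told apart, and the part of these cell types in the class II differences was not tested. With the SiO2 array shifted until the lymphocyte markers had a median of 0, H2-Ab1 was at 0.56, H2-Aa at 0.37, H2-Eb2 at 0.23 and H2-Eb1 at 0.13. The other 6 then remained below 0 by their brightest probes, from -0.47 for Ciita to -0.05 for H2-Oa. H2-Eb1, H2-DMa (-0.14) and H2-Oa lay within the spot error of 0.20, and the 2 probes of H2-Ob disagreed. The 2 lists joined in this shift differed themselves, with medians of -0.63 for B cell and -0.25 for T cell markers.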

How the data were processed

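Per the labels' protocols, total RNA was prepared with a blood RNA kit and depleted of globin message, and Cy3-labelled cRNA was made from it. The deposited scanner files hold spot intensity on a linear scale, background-subtracted by Agilent Feature Extraction 11.0.1.1, per the file headers (the submitters' processing notes name 9.1). The series matrix that the authors deposited has log2 values, 1 column a pool, for 4 of the 10 genes; how they were normalized is not given in the sources used.

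Control and outlier spots were left out, and repeated spots of a probe were averaged. A probe counted as above background where more than 50% of its spots did. Probes were named through unversioned accessions in the RefSeq table of GRCm38.p6 (names only): 27217 of 39398 probes (69.1%) matched 1 symbol. A gene was given by its brightest probe above background on at least 1 array, and a dim value was raised to the lowest value above background on that array, which affected none of the genes named. Counts use limits of 1.5-fold and 2-fold. Every gene of the 10 is named; from each related list, those past 2-fold, the 3 nearest its median and genes that act with the 10. Some genes that this rule takes are left out of the text, and some named genes fall outside it, among them the B cell markers Cd79b, Ms4a1 and Cr2. The 10 genes and all lists were chosen with earlier results of these data known. Alternatives were run in R 4.3.3 with limma 3.58.1 and in Python 3.11.15, after a check on simulated data. The number of arrays limits the precision.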

Additional observations from a re-analysis of the deposited data

How the results depend on the processing

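No paired analysis was possible because each group has 1 array. Of 9 alternatives, 1 changed the description of the 10 genes as a set. With lymphocyte markers (the B cell and T cell lists) brought to a median of 0, their median was -0.10 in place of -0.54, and 0 in place of 5 were at least 1.5-fold lower. By construction this raises every gene by 0.45, and the median of all named genes to 0.48. The other 7 alternatives that hold all 10 genes gave medians between -0.57 and -0.47 and 4 or 5 genes at least 1.5-fold lower. The gene lost was H2-DMa with normexp and cyclic loess, and H2-Ob (-0.44) as the mean of its probes. In all 8 none was 2-fold lower or 1.5-fold higher. Normexp moved the median of all named genes to 0.17, and that of the 10 genes was then -0.53. The authors' deposited values hold H2-Aa, H2-DMa, H2-Oa and H2-Ob, with a median of -0.55 in place of -0.54 for these 4. No called difference among the 10 genes changed sign. Outside the 10, the probes of Marchf1 ran from -0.64 to 1.28, so its direction depends on the probe. All spots of the 10 genes were well above background. The 1 array a group, the choice of scaling, the disagreement of the H2-Ob probes and the likeness of H2-DMb1 and H2-DMb2 each limit what these values show.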

Other observations

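On the T cell side of class II recognition, 2 of 11 measured genes were at least 1.5-fold lower in the SiO2 pool and none higher, with a median of -0.26. The shares of all named genes past this limit were 12.3% lower and 16.0% higher. Cd4, the co-receptor that binds class II, was at 0.09 by its brightest probe and at -0.25 by its lowest. Lag3, an inhibitory receptor that also binds class II, was at -0.94, with signals of 76.5 in the SiO2 pool and 209 in the PBS pool. It was at -0.55 with normexp, short of the 1.5-fold limit, which left 1 of the 11 past it, against 6.9% of all named genes. The kinase Lck was at -0.71. The T cell receptor chain Cd3d (-0.26), the kinase Zap70 (-0.28) and the co-stimulatory receptor Icos (-0.29, or 0.22 by its other probe) lay near the median. Plasma cell markers, from cells known to shut down Ciita, had a median of -0.07 over 7 genes, with none 1.5-fold lower or higher. Prdm1, which encodes the repressor that silences Ciita in plasma cells, was at -0.07, and at 0.06 with normexp.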
